A study of Rattus norvegicus with 6 samples.

Results

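Cxcl1, Cxcl2, Cxcl3, Cxcl10 and Cxcl12 are CXC chemokines, small secreted proteins that direct the movement of cells. These 5 genes were taken by their Ensembl rat gene IDs from the 27108 genes of the count table, and all 5 rows were present. They were chosen with the difference between the substrates already known for these libraries, so their values are given as a description of that difference. The libraries came from ventricular cardiac fibroblasts of neonatal rats, which make and maintain the matrix of the heart, read by RNA sequencing after 48 h on the substrate. In the UT group the cells grew on glass coated with fibronectin alone, and in the TTR group on glass with fibronectin and fibrils of transthyretin, a plasma carrier protein that deposits in the heart in transthyretin amyloidosis. Fibronectin was thus common to both groups, and each held 3 libraries. No genotype, strain or agent beyond the fibrils is named, and the labels do not say whether the replicates were separate cell isolations or pools of animals.

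CXC chemokines act through G protein-coupled receptors on the cells they attract. Cxcl1, Cxcl2 and Cxcl3 belong to the group that carries a glutamate-leucine-arginine motif, bind Cxcr2 and draw neutrophils. Their transcription in stromal cells is known to be driven through NF-kB after signals such as interleukin-1, tumour necrosis factor or Toll-like receptor ligands. Cxcl10 lacks that motif, is induced by interferons and draws activated T cells through Cxcr3. Cxcl12 also lacks it, is made steadily by many stromal cells including fibroblasts, and acts through Cxcr4 and Ackr3 on progenitor cells and lymphocytes.

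The bases just before the annotated start of these genes are shown because the neutrophil chemokines are textbook targets of NF-kB and Cxcl12 is not grouped with them. Sequences are from RefSeq on build GRCr8, which is not the rn6 build named for the counts. RefSeq promoter entries matched 4 of the 5 genes, all but Cxcl3. Each run holds the 250 bases before the start, 5′ to 3′ on the strand of the gene, with matches to the NF-kB consensus on either strand in capitals. The regions are chr14:17479322-17479571 on the minus strand for Cxcl1, chr14:17467256-17467505 on the minus strand for Cxcl2, chr14:15988816-15989065 on the plus strand for Cxcl10 and chr4:152060531-152060780 on the plus strand for Cxcl12.
Cxcl1: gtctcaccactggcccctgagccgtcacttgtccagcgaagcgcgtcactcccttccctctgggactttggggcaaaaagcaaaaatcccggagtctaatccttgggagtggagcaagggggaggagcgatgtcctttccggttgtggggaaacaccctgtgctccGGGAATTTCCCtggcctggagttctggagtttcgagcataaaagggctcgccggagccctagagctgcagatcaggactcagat
Cxcl2: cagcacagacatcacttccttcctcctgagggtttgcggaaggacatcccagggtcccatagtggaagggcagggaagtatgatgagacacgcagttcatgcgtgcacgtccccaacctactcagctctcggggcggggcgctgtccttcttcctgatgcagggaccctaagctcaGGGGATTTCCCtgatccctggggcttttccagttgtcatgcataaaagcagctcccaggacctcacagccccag
Cxcl10: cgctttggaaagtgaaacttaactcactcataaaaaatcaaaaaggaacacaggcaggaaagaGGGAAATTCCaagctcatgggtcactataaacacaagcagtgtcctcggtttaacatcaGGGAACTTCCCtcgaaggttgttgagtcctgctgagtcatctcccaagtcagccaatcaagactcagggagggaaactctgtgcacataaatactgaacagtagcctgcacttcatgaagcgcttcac
Cxcl12: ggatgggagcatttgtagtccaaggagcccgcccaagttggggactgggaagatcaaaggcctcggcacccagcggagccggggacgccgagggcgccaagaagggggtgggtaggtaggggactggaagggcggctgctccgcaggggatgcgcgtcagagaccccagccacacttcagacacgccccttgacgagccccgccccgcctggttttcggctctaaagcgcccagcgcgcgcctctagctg

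The NF-kB consensus was found before Cxcl1, Cxcl2 and Cxcl10 and not before Cxcl12. Among the 33469 RefSeq promoters of this length, 6.33% held a match. In Cxcl1 a pair of overlapping matches on opposite strands covered bases -84 to -74, counted from -1 as the last base before the start. In Cxcl2 overlapping matches covered -74 to -64. Cxcl10 held a match at -187 to -178 and an overlapping pair at -128 to -118. The interferon-stimulated response element, searched on both strands as GAAA, any 2 bases and GAAA, was found only in Cxcl10, at -243 to -234, and in 3.41% of all promoters. An AP-1 match (TGANTCA) was found in Cxcl10 at -96 to -90, against 6.34% of all promoters, and a C/EBP match (TTGCNNCAA) in Cxcl1 at -183 to -175, against 1.75%. The letters TATAAA were found in Cxcl10 at -162 to -157 and in 12.9% of all promoters. Only these exact letters were searched. Variants such as the cataaaag in the Cxcl1 and Cxcl2 windows and the cataaata near the end of the Cxcl10 window were not counted. The Cxcl12 window held no match to any of these 5 motifs. It was richest of the 4 in G and C, at 67.6% with 20 CpG pairs, where Cxcl1 and Cxcl2 each had 58.0% with 11 and 7 CpG pairs, Cxcl10 had 45.2% with 4, and the median promoter had 51.2% with 5. A match is a stretch of letters and not evidence that a factor was bound.

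**Figure D1:**
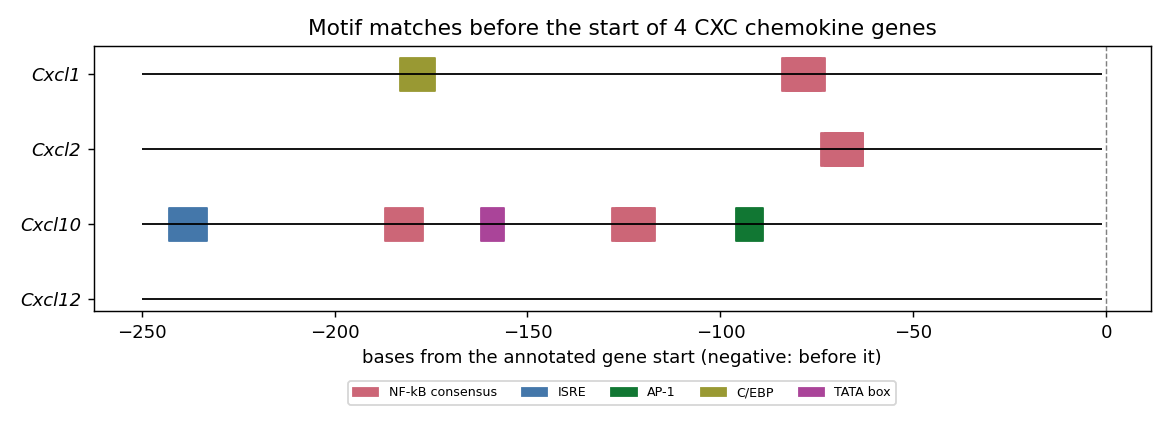
Motif matches in the 250 bases before the annotated start of Cxcl1, Cxcl2, Cxcl10 and Cxcl12; the x axis is the distance from the start in bases, and colours mark the motif. NF-kB consensus matches (red) lie at -84 to -74 in Cxcl1, at -74 to -64 in Cxcl2 and at 2 places in Cxcl10, and Cxcl12 has no match to any motif searched.

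In the RefSeq gene order, Cxcl2 and Cxcl1 are neighbouring protein-coding genes on chromosome 14, with a single protein-coding locus between Cxcl1 and Cxcl3. The gene after Cxcl3 is Pf4, another CXC chemokine gene. Cxcl10 lies on the same chromosome between Cxcl11 and Cxcl9, both also interferon-induced ligands of Cxcr3. Cxcl12 stands apart on chromosome 4. Cxcl1, Cxcl2 and Cxcl3 are close relatives, and the handling of reads that map to several genes is not given in the sources used here, so some reads could be lost or assigned among them.

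Library totals ran from 6574199 to 11774729 counts, and the deepest was TTR replicate 1. Levels are counts per 1000000 (CPM) scaled to TMM-adjusted library sizes, so 1 count was worth 0.0860 CPM in TTR replicate 1 and 0.136 to 0.150 CPM in the others. CPM is not divided by transcript length, so levels of different genes are not ranked against each other. The table carries no symbols and the reference table paired 0 of its 27108 IDs with one, so the fibroblast label was not checked against marker genes, and leukocyte markers, the CXC receptors, the other CXC ligands, NF-kB regulators and interferon-response genes were not analysed here. In cultures sequenced in bulk, more cells of a type and more RNA per cell cannot be told apart.

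Neutrophil-attracting chemokine transcripts were scarce on fibronectin alone and several-fold higher in every library from the fibril substrate. On UT, Cxcl1 averaged 4.19 ± 1.44 CPM, Cxcl2 0.146 ± 0.145 CPM and Cxcl3 0.240 ± 0.0905 CPM (SD, n = 3). On TTR, the averages were 40.0 ± 16.5, 3.51 ± 2.46 and 6.28 ± 2.86 CPM (SD, n = 3). Cxcl12 differed far less, with 153 ± 19.2 CPM on UT against 214 ± 47.9 on TTR (SD, n = 3), and Cxcl10 was near the limit of detection in both groups. In 4 of the 5 genes, all but Cxcl10, the lowest TTR library exceeded the highest UT library. The same was true of 3.65% of the 18627 genes with a count, and nothing is read from this count because the genes were chosen on this contrast.

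**Figure D2:**
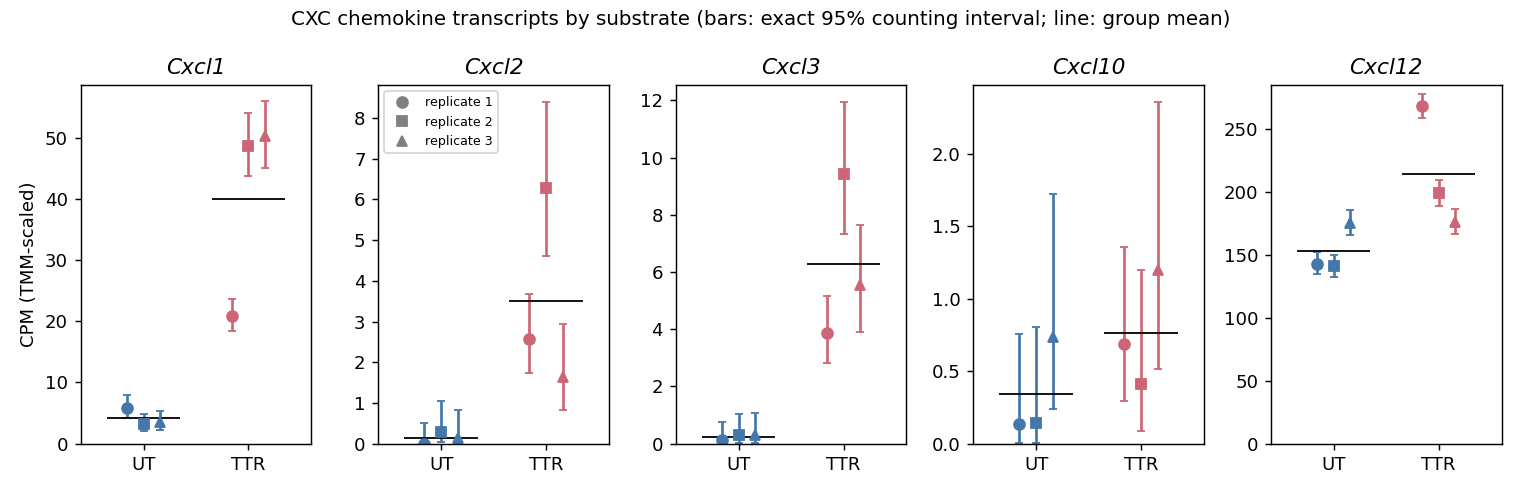
Level of each CXC chemokine transcript in each of the 6 libraries, in TMM-scaled CPM on a linear axis from 0, with UT in blue, TTR in red and marker shapes for replicate numbers. Vertical bars are exact 95% Poisson intervals of the single library's count and horizontal lines are group means; UT and TTR points are separate for Cxcl1, Cxcl2 and Cxcl3, just touch for Cxcl12 (175 against 176 CPM) and overlap for Cxcl10.

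Cxcl1 (ENSRNOG00000002802), a main neutrophil attractant of rodents, was counted 43, 22 and 24 times in UT replicates 1, 2 and 3 and 243, 356 and 336 times in TTR replicates 1, 2 and 3. Its levels were 5.85, 3.19 and 3.55 CPM on UT and 20.9, 48.7 and 50.3 CPM on TTR. The groups did not overlap, and TTR replicate 1 was the lowest TTR library while still 3.58 times the highest UT library. The ratio of the means was 9.53, and the fitted log2 difference was 3.23 (SE 0.38, 95% interval 2.37 to 4.09). TTR replicate 1 stood 4.98-fold above the UT mean, against 11.6-fold and 12.0-fold for TTR replicates 2 and 3. The exact Poisson intervals of TTR replicate 1 (18.4 to 23.7 CPM) and TTR replicate 2 (43.8 to 54.0 CPM) were apart, so that spread within the TTR group was wider than counting error.

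Cxcl2 (ENSRNOG00000002792), a further Cxcr2 ligand known as a product of activated macrophages and stromal cells, was counted 0, 2 and 1 times on UT and 30, 46 and 11 times on TTR. A count of 0 in UT replicate 1 allows a level of up to 0.408 CPM, taking 3 counts as the limit, and the two-sided 95% interval plotted for that library reaches 0.501 CPM. Its TTR levels were 2.58, 6.29 and 1.65 CPM, so the lowest was TTR replicate 3 and not TTR replicate 1. With only 3 counts over the UT group, the size of the difference is poorly fixed: pooled over libraries the level on TTR was 23.8 times that on UT, with an exact interval of 7.88 to 118 for counting error alone. The fitted log2 difference was 4.46 (SE 0.83), with a 95% interval of 2.58 to 6.34. It was 5.33 without UT replicate 2, 3.90 without UT replicate 1 and 3.78 without TTR replicate 2.

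Cxcl3 (ENSRNOG00000028043), the third Cxcr2 ligand of the set, was counted 1, 2 and 2 times on UT and 45, 69 and 37 times on TTR. On TTR this came to 3.87, 9.44 and 5.54 CPM, and the lowest of these was 13.1 times the highest UT level of 0.296 CPM. The pooled ratio was 24.8, with an exact counting interval of 10.4 to 77.4 around a UT total of 5 counts. Its fitted log2 difference was 4.61 (SE 0.55), with a 95% interval of 3.38 to 5.85. Whether the difference of Cxcl3 exceeds that of Cxcl1 was not tested. Cxcl1 had 43, 11 and 12 counts for each Cxcl3 count in UT replicates 1, 2 and 3, on 1 or 2 Cxcl3 counts each, and 5.40, 5.16 and 9.08 in TTR replicates 1, 2 and 3.

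Within the TTR group the 3 neutrophil chemokines did not keep the same order of libraries. TTR replicate 2 was highest for Cxcl2 and Cxcl3, and TTR replicate 3 was highest for Cxcl1 by a margin within the counting intervals of the pair (43.8 to 54.0 and 45.0 to 55.9 CPM). Of the summed counts of these 3 genes, Cxcl2 made up 9.43% in TTR replicate 1 and 9.77% in TTR replicate 2 but 2.86% in TTR replicate 3, with exact binomial intervals of 6.46% to 13.2%, 7.24% to 12.8% and 1.44% to 5.07%. The share of Cxcl1 was 76.4%, 75.6% and 87.5% in TTR replicates 1, 2 and 3, with intervals of 71.4% to 81.0%, 71.4% to 79.4% and 83.8% to 90.6%. The share of Cxcl3 was 14.2%, 14.6% and 9.64%, with overlapping intervals. TTR replicate 3 thus held a lower proportion of Cxcl2 and a higher proportion of Cxcl1 than the other TTR libraries, by more than counting error. In UT replicates 1, 2 and 3 the 3 genes summed to 44, 26 and 27 counts, of which Cxcl1 was 97.7%, 84.6% and 88.9%. Their exact intervals were wide, at 88.0% to 99.9%, 65.1% to 95.6% and 70.8% to 97.6%. The first lay above the intervals of TTR replicates 1 and 2, and the other two overlapped those of TTR libraries.

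**Figure D3:**
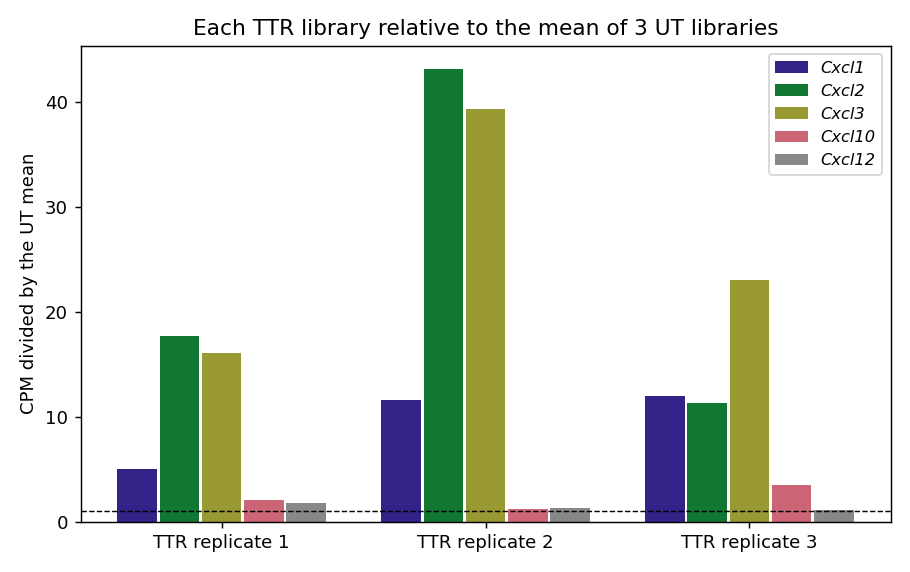
CPM in each TTR library divided by the mean CPM of the 3 UT libraries, as bars on a linear axis from 0, for the 5 CXC chemokine genes; the dashed line marks a ratio of 1. Cxcl2 ranges from 11.3 to 43.2 on a baseline of 3 UT counts and Cxcl3 from 16.1 to 39.3 on 5 UT counts, Cxcl1 from 4.98 to 12.0, and Cxcl12 from 1.15 to 1.75.

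Cxcl10 (ENSRNOG00000022256), the interferon-induced ligand, was counted 1, 1 and 5 times on UT and 8, 3 and 8 times on TTR. These counts are 0.136, 0.145 and 0.739 CPM on UT and 0.688, 0.410 and 1.20 CPM on TTR. The groups overlapped, since UT replicate 3 lay above TTR replicates 1 and 2. The pooled ratio was 2.23 with an exact interval of 0.897 to 6.27 that covers counting error and not the spread between libraries, so a difference was not detectable at this depth. Cxcl10 did not pass the filter on low counts and has no value in the reported edgeR fit. Fitted without that filter, its log2 difference was 1.13 (SE 0.81).

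Cxcl12 (ENSRNOG00000013589), the stromal ligand of Cxcr4, was the only gene of the 5 with a high count on fibronectin alone, at 1052, 973 and 1185 counts on UT and 3115, 1452 and 1177 on TTR. Its levels were 143, 141 and 175 CPM on UT and 268, 199 and 176 CPM on TTR. TTR replicate 3 and UT replicate 3 were level within counting error (166 to 186 and 165 to 185 CPM), so the separation of the groups rests on a gap of 1.01-fold between them. That gap stayed above 1 under each of the 4 library scalings tried, between 1.01 and 1.04. The fitted log2 difference was 0.49 (SE 0.17, 95% interval 0.10 to 0.87), and the ratio of the means was 1.40. TTR replicate 1 was the highest library for Cxcl12 at 1.75 times the UT mean and the lowest TTR library for Cxcl1 and Cxcl3. Without TTR replicate 1 the log2 difference of Cxcl12 was 0.29.

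Set against each other within a library, the stromal chemokine Cxcl12 and the neutrophil chemokine Cxcl1 stood in different proportions on the 2 substrates. For each Cxcl1 count there were 24.5, 44.2 and 49.4 Cxcl12 counts in UT replicates 1, 2 and 3, and 12.8, 4.08 and 3.50 in TTR replicates 1, 2 and 3. The groups did not overlap in this ratio, which needs no library scaling, and TTR replicate 1 lay nearest to UT. Because both genes were chosen with this contrast known, the ratio restates their differences and adds no support to them. Of all counts for the 5 genes, Cxcl12 took 95.9% to 97.4% in UT libraries and 90.5%, 75.4% and 75.0% in TTR replicates 1, 2 and 3.

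In the edgeR quasi-likelihood fit over all 12049 tested genes, with a Benjamini-Hochberg adjusted p threshold of 0.05, 0 of the 4 tested chemokine genes were called, against 0.0083% of all tested genes (1 gene). Adjusted p in this edgeR fit was 0.0565 for Cxcl1 and Cxcl3, just over the threshold, 0.271 for Cxcl2 and 0.999 for Cxcl12. All 4 had an unadjusted p under 0.05 in this edgeR fit, as did 285 of the 12049 tested genes, these 4 included. Cxcl12 no longer did without UT replicate 1, UT replicate 2 or TTR replicate 1 (log2 difference 0.44, 0.43 and 0.29). By limma-voom 0 of 4 were called, against 0.0083% of genes. DESeq2 called 3 of 5, Cxcl1, Cxcl2 and Cxcl3, against 0.199% of its 18627 genes, and edgeR without the low count filter called the same 3, against 0.193%. Where genes had to reach 1 CPM in 3 libraries, edgeR called Cxcl1 and Cxcl3, against 0.024% of genes. Both then had an edgeR adjusted p of 0.0494, just under the threshold, with log2 differences of 3.23 and 4.62. Without TTR replicate 1 edgeR called the same pair, against 0.0737% of genes. Because the genes were chosen with this contrast known, these calls add no support to the differences above. Cxcl2 and Cxcl3 passed the low count filter through their TTR libraries alone. By fitted log2 difference Cxcl3 ranked 3rd, Cxcl2 4th and Cxcl1 10th from the top of the 12049 genes, and Cxcl12 ranked 270th. The median size of the log2 difference over all tested genes was 0.10.

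**Figure D4:**
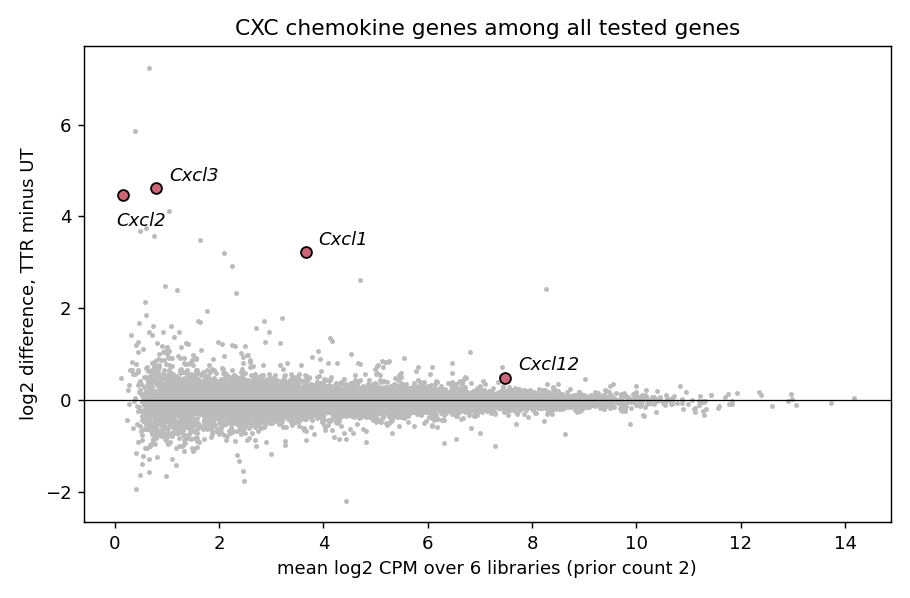
Log2 difference between TTR and UT (y axis) against the mean log2 CPM over the 6 libraries (x axis) for the 12049 tested genes in grey, with Cxcl1, Cxcl2, Cxcl3 and Cxcl12 in red. Cxcl2 and Cxcl3 lie at the low end of expression with differences of 4.46 and 4.61, Cxcl1 lies at 3.23, and Cxcl12 lies at 0.49, above most genes of its level.

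Likeness of pattern was measured as the root mean square difference between mean-centred log2 CPM values over the 6 libraries, and each tested chemokine was compared with all 12048 other tested genes. Cxcl2 and Cxcl3 were the third closest gene to each other, at 0.48. Cxcl3 was the fifth closest gene to Cxcl1, at 0.55, and Cxcl2 the 14th, at 0.83. Cxcl12 was 576th from Cxcl1, at 1.48, and Cxcl1 was 12019th from Cxcl12 at the same distance. The measure spans both groups, so it follows mainly the contrast on which the genes were chosen, and closeness among genes high on TTR is no separate observation. The 2 genes closest to Cxcl1, printed by ID because no symbol could be paired with them, were ENSRNOG00000010181 at 0.31 and ENSRNOG00000030021 at 0.37. On UT the level of ENSRNOG00000010181 was 0.376 ± 0.145 CPM, against 4.74 ± 2.50 on TTR (SD, n = 3). For ENSRNOG00000030021 the levels were 0.324 ± 0.308 and 4.78 ± 3.34 CPM (SD, n = 3). Both were lowest in TTR replicate 1 among the TTR libraries, as Cxcl1 was. With prior counts added before the logarithm, low genes look more alike on this scale than their counts would.

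**Figure D5:**
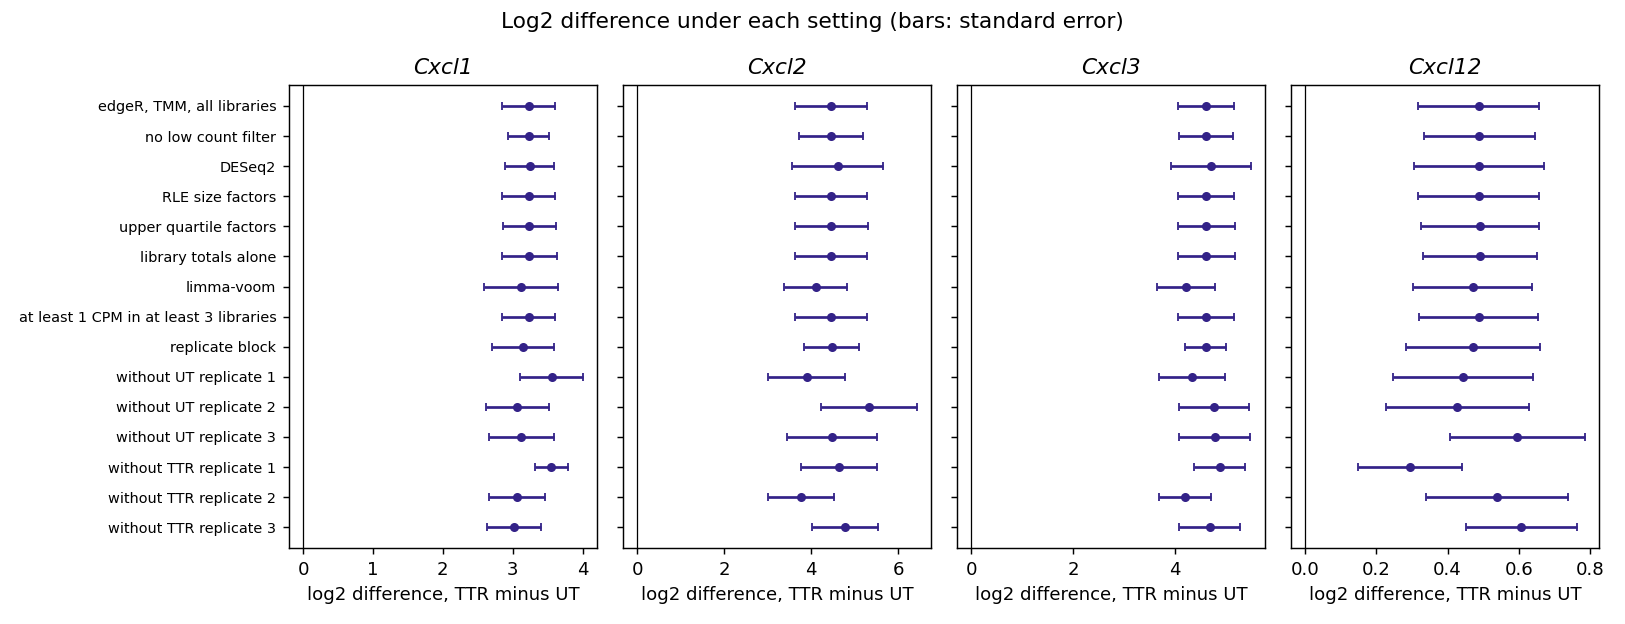
Fitted log2 difference between TTR and UT (x axis) for Cxcl1, Cxcl2, Cxcl3 and Cxcl12 under the reported fit and 14 alternative settings (y axis), with standard errors as bars and a vertical line at 0. Values for Cxcl1 run from 3.02 to 3.56, for Cxcl2 from 3.78 to 5.33, for Cxcl3 from 4.20 to 4.88 and for Cxcl12 from 0.29 to 0.61, the lowest of these without TTR replicate 1.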

How the data were processed

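RNA from the cultured cells was sequenced as 6 libraries, and the authors deposited 1 table of raw counts per gene. STAR, featureCounts, edgeR and build rn6 are named without versions, per the submitters' processing notes; annotation, strand setting and multi-mapping treatment were not given in the sources used here. Library totals were 6574199 to 11774729 counts. The smallest chi-square per degree of freedom between libraries, for genes averaging 20 counts or more, was 5.51, so none was a duplicate within sampling noise. That value was for UT replicate 3 with TTR replicate 1. UT replicate 2 with TTR replicate 2 gave 5.69, and UT replicate 1 with TTR replicate 3 gave 7.41. Every pair within a group was larger, from 8.78 to 30.5. No fit takes account of these close pairs as a set, since the replicate block pairs libraries by number. Paired by number, UT replicate 1 with TTR replicate 1 gave 22.3 and UT replicate 3 with TTR replicate 3 gave 22.7. Since no label names separate isolations, p-values cover only library spread, which may be technical.

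TTR was compared with UT by the edgeR 4.0.16 quasi-likelihood F-test (R 4.3.3), two-sided, on substrate only, with TMM scaling, filterByExpr (minimum count 10) and Benjamini-Hochberg adjustment over all tested genes. Standard errors came from the fold and the F statistic. The alternatives used RLE, upper quartile or no factors, DESeq2 1.42.0, limma-voom (limma 3.58.1), no filter, a replicate block, a 1 CPM minimum in 3 libraries, and leaving out each library. The tests were checked on simulated counts. Intervals of counts and shares are exact at 95% and cover counting error only. All 5 chemokine genes are named, with the 2 genes most like Cxcl1. The 10 gene lists by symbol (92 symbols) could not be matched to IDs. The genes and lists were chosen with earlier results of these data known.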

Additional observations from a re-analysis of the deposited data

How the results depend on the processing

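All 4 chemokine genes of the reported edgeR fit kept a positive log2 difference under the 14 alternatives, which groups without overlap largely fix. Adjusted p ranged from 1.34e-16 to 0.483 for Cxcl1, 0.00481 to 0.916 for Cxcl2, 3.88e-06 to 0.288 for Cxcl3 and 0.699 to 1 for Cxcl12 (edgeR, limma-voom and DESeq2, Benjamini-Hochberg). DESeq2 called 37 genes with 3 chemokine genes among them, no low count filter 36 with 3, and 1 CPM in at least 3 libraries 3 with 2 (Cxcl1 and Cxcl3), against 1 and 0 in the reported edgeR fit. RLE, upper quartile and no factors and limma-voom left 1 and 0. Leaving out 1 library gave 1 to 9 genes and 0 to 2 chemokine genes. The 9 and the 2 (Cxcl1 and Cxcl3, adjusted p 0.00172 and 0.0125 by edgeR) came without TTR replicate 1, and leaving out UT replicate 2 gave 2 genes. For none of these shifts was the cause tested. Under a replicate block edgeR called 0 genes and 0 chemokine genes, with adjusted p of 0.483, 0.483 and 0.124 for Cxcl1, Cxcl2 and Cxcl3. Deviations from the group means correlated at -0.38, 0.44 and -0.40 for numbers 1, 2 and 3, and only number 2 correlated best with its own. Deviations of 3 libraries add to 0, so these correlations offset one another, and whether libraries were paired was not tested. UT replicate 3 correlated at 0.58 with TTR replicate 1 and UT replicate 1 at 0.52 with TTR replicate 3; no fit takes up this structure, which no label explains. Cxcl10 was fitted only by DESeq2 and without the filter, and depth limits it, Cxcl2 and Cxcl3.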
